A study of Mus musculus with 28 samples.

Results

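The genes that tell a fat cell how much amino acid and energy it has, those of mTORC1 and AMPK, were followed in adipose tissue RNA-seq of mice with a knockout of Fgf13, which encodes an intracellular member of the fibroblast growth factor family. The set held 39 genes of 55891 gene identifiers in the deposited tables. They were listed by name, as subunits and close regulators of the mTOR and AMPK complexes, with earlier results of these data known. The 28 libraries (13 KO, 15 Control) came from 5 depot data sets. The knockout, written Fgf13∆Adipo, was inducible in the epididymal (ieWAT) and subcutaneous (isWAT) white fat sets, and constitutive in a second subcutaneous white set (sWAT) and in brown fat (BAT). KO mice and Control mice of these 4 sets were all obese after 20 weeks of high fat diet, so the diet is common to both groups. A further epididymal set (eWAT) is labelled only Fgf13 KO and WT, with no knockout type or diet given for it. There were 3 KO and 3 Control libraries in ieWAT, sWAT and eWAT, and 2 KO and 3 Control libraries in isWAT and BAT. The sources used here do not give the promoter that drives the deletion, the age or sex of the mice, or whether each library of a group is a different mouse. The p-values below therefore measure only how far these samples spread, which may be technical.

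mTORC1 is a kinase complex on the lysosome surface that promotes protein and lipid synthesis when nutrients are plentiful. Rag GTPases, tethered there by the Ragulator complex, recruit it when amino acids are present, GATOR1 switches the Rags off, the sestrins and CASTOR1 report leucine and arginine, and the folliculin complex acts on RagC and RagD. Rheb activates mTORC1 and is itself held off by the TSC proteins, while AMPK, an energy sensor activated by LKB1, restrains mTORC1 through TSC2 and raptor and phosphorylates enzymes of lipid metabolism in fat. Both kinases are controlled mainly by binding and phosphorylation, so transcript levels measure how much of the machinery is encoded and not how active it is.

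The inducible sets were sequenced deeper, with 29857189 to 43624353 reads a library for ieWAT and 37700750 to 48812592 for isWAT. The sWAT libraries held 13490948 to 21241811 reads and the BAT libraries 14951333 to 21246286, and the depth of the eWAT libraries is unknown. Fgf13 itself averaged 27.1 CPM in KO and 44.3 CPM in Control ieWAT libraries, 33.3 CPM in KO and 60.3 CPM in Control isWAT libraries, 63.2 CPM in KO and 109.5 CPM in Control sWAT libraries, and 1.06 CPM in KO and 9.07 CPM in Control BAT libraries. Every KO library of these 4 sets lay below every Control library of its set (exact two-sided permutation p = 0.1 with 3 against 3 and 0.2 with 2 against 3, the smallest possible). In eWAT it averaged 22.6 ± 4.76 FPKM in the libraries labelled KO and 20.3 ± 7.39 FPKM in those labelled Control (SD, n = 3 each; exact two-sided permutation p = 0.7) and the groups overlapped, which goes against the labels, so the eWAT groups are named below only as labelled. Adipocyte markers were detected in every set, and the brown fat markers averaged 7.64 and 7.81 in BAT KO libraries, against 7.47, 7.72 and 7.37 in BAT Control libraries, on the log2(CPM + 1) scale, and at most 3.14 in the white fat libraries given in CPM. Skeletal muscle genes stood at 0.72, 6.15 and 6.41 in sWAT KO libraries, against 0.99, 0.89 and 0.79 in sWAT Control libraries (mean log2(CPM + 1) of 12 genes), and at 0.36 and 8.84 in BAT KO libraries, against 5.16, 6.68 and 0.86 in BAT Control libraries. Muscle RNA was thus high in 2 of 3 sWAT KO libraries, 1 of 2 BAT KO libraries and 2 of 3 BAT Control libraries. Endothelial markers averaged 7.5 and 7.64 in isWAT KO libraries, against 7.92, 7.80 and 7.73 in isWAT Control libraries, and 7.04, 6.81 and 6.76 in sWAT KO libraries, against 7.16, 7.22 and 7.18 in sWAT Control libraries; their part in the values of the members was not tested. T and NK cell markers averaged 3.39, 2.99 and 3.34 in ieWAT KO libraries, against 2.91, 2.31 and 2.14 in ieWAT Control libraries (10 of 10 higher). In isWAT they averaged 1.66 and 1.51 in KO libraries, against 1.78, 1.82 and 2.07 in Control libraries (9 of 10 lower). The part of these markers was not tested either. In bulk tissue, fewer cells of a type and less RNA per cell cannot be told apart.

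In eWAT, Rragd and Fnip1 fell, and Castor1, Nprl3, Deptor, Rps6kb1 and Eif4ebp1 rose in the libraries labelled KO. These 7 of the 38 members tested (18.4%) passed a Benjamini-Hochberg adjusted p of 0.05 in limma, 5 higher and 2 lower, against 14.9% of the 13736 genes tested (10.2% higher, 4.7% lower). That share is near the one over all genes, so the count is no result about the members as a set. No member passed in ieWAT (38 tested), isWAT (37), sWAT (37) or BAT (39), where 0%, 0.00701%, 0.0217% and 0.00755% of all genes did, so the members' 0 is no result about them either, and a difference between the sets was not tested. At an unadjusted p under 0.05 the count was 0 members in ieWAT (2.62% of all genes), 4 in isWAT (13.1%), 3 in sWAT (9.66%), 5 in BAT (19.2%) and 15 among the eWAT members (33.9%). DESeq2 on the reads called 0 members in ieWAT (0.218% of genes with an adjusted p) and sWAT (0.377%), Rheb in isWAT (1 of 37 members, against 2.15% of genes), and Deptor and Prkab1 in BAT (2 of 39, against 5.98%). edgeR called no member in these 4 sets, where it called at most 0.0217% of all genes.

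Members went both ways in every set. The median size of their log2 change, sign ignored, was 0.22 in eWAT (0.21 over all genes tested), 0.064 in ieWAT (0.090), 0.086 in isWAT (0.13), 0.084 in sWAT (0.11) and 0.14 in BAT (0.23). The median signed log2 change (KO minus Control, on log2(value + 1), which understates changes of low genes) over the members was -0.015 in ieWAT beside 0.018 over all genes tested, -0.040 in isWAT beside -0.028, -0.036 in sWAT beside -0.048, -0.045 in BAT beside -0.18, and 0.054 in eWAT beside -0.025. In 18 of 38 members in eWAT every library labelled KO lay beyond every library labelled Control, against 41.2% of all genes (12 members higher and 6 lower, against 21.6% and 19.6% of all genes). Such separation held for 1 of 38 members in ieWAT, lower (5.11% of all genes, 3.43% higher and 1.68% lower). In isWAT it held for 13 of 37 members, 5 higher and 8 lower (31.6% of all genes, 12.2% higher and 19.4% lower). In sWAT it held for 8 of 37, 2 higher and 6 lower (16.1%, 3.8% higher and 12.3% lower), and in BAT for 13 of 39, 4 higher and 9 lower (44.5%, 6.37% higher and 38.1% lower). These counts hold Prkaa2 in eWAT and Rragb in BAT, which reached the filter of 1 in the KO libraries alone and so had to differ. The BAT scale needs a caution for every member below: TMM scaling, which aligns the bulk of genes between libraries, moved the BAT median of all genes to 0.0016 and that of the members to 0.15, and the members above 0 numbered 29 of 39 under TMM, against 13 of 39 as deposited (50.3% and 23.6% of all genes). The BAT changes that follow are on the deposited scale unless TMM is named.

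**Figure D1:**
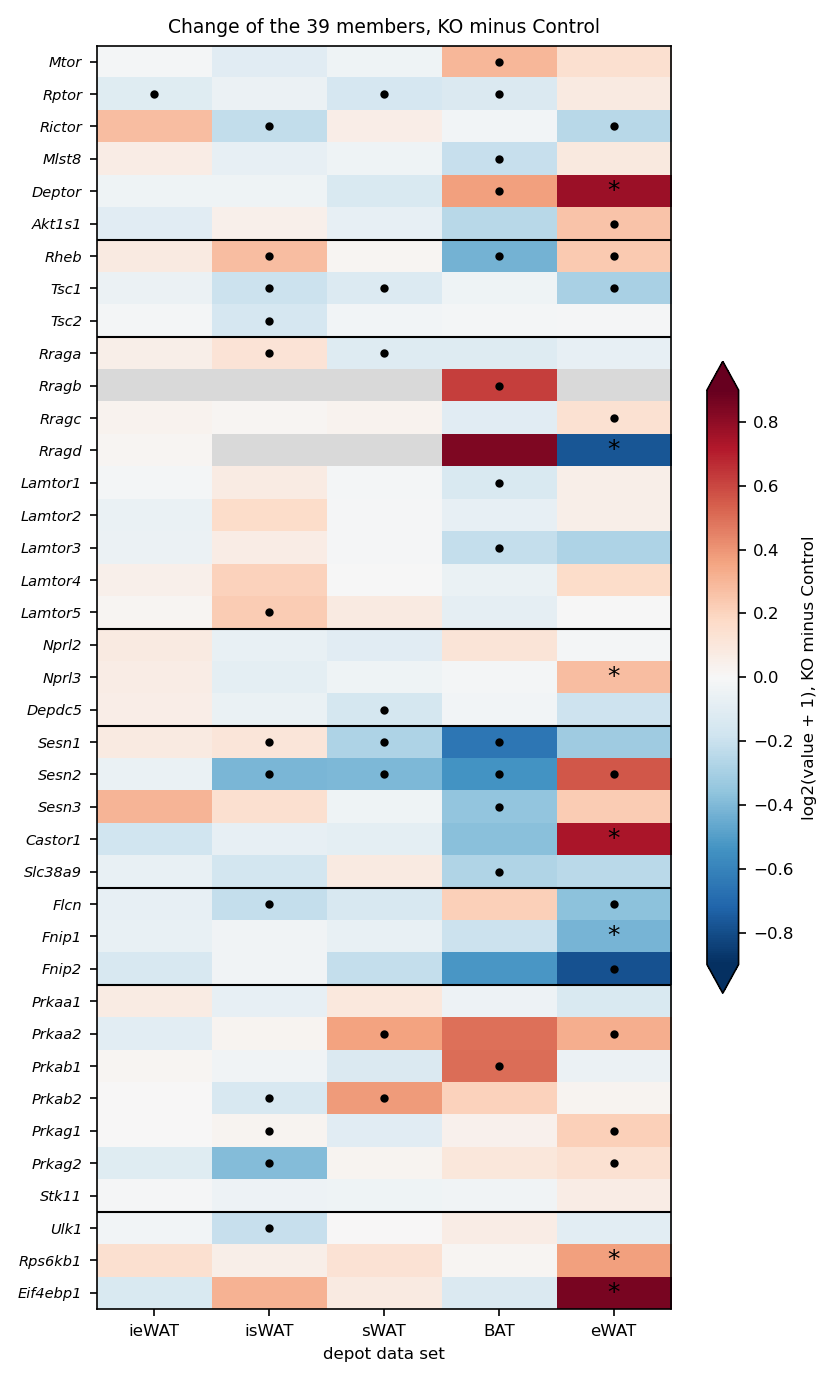
Log2 change, KO minus Control on log2(value + 1), of each of the 39 members (rows, grouped by complex) in the 5 depot data sets (columns), with grey for members under the filter. Asterisks mark the 7 members past an adjusted p of 0.05, which are all in the eWAT column, and dots mark other members whose groups do not overlap; the Sesn2 row is blue with a dot in isWAT, sWAT and BAT and red in eWAT.

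eWAT also differed in cell-type markers. All 10 adipocyte markers were higher in the libraries labelled KO, with list means on log2(FPKM + 1) of 9.51, 9.57 and 9.70 in the libraries labelled KO, against 8.53, 8.28 and 7.88 in those labelled Control, and all 10 passed the threshold. All 10 macrophage markers were lower (8.54, 8.21 and 8.35 in the libraries labelled KO, against 8.81, 9.09 and 9.33 in those labelled Control), and 5 passed. The 10 endothelial markers were higher and 6 passed. The part of this shift in the eWAT values of the members was not tested.

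Of the mTOR kinase and its partners, 1 gene passed in eWAT, Deptor, which encodes a subunit that binds mTOR and inhibits it. Deptor had 29.7, 26.8 and 32.8 FPKM in the libraries labelled KO, against 17.1, 22.3 and 12.8 FPKM in those labelled Control. The groups did not overlap, and Deptor rose, with a log2 change of 0.77 ± 0.19 (SE) (limma adjusted p = 0.0411). Akt1s1, which encodes PRAS40, an inhibitory mTORC1 subunit, was also higher in every library labelled KO, at 51.8 ± 3.18 FPKM in the libraries labelled KO and 43.1 ± 2.74 FPKM in those labelled Control (SD, n = 3 each), and missed the threshold (limma adjusted p = 0.0867). Rictor, the defining subunit of mTORC2, was lower in every one of them, at 2.77 ± 0.244 FPKM in the libraries labelled KO and 3.48 ± 0.122 FPKM in those labelled Control (SD, n = 3 each; limma adjusted p = 0.129). Mtor itself had 12.5, 14.2 and 11.1 FPKM in the libraries labelled KO, against 12.3, 11 and 10.5 FPKM in those labelled Control, with overlapping groups (limma adjusted p = 0.387). Rptor, the raptor subunit that brings substrates to mTORC1, likewise overlapped, at 13.5, 10.7 and 13.6 FPKM in the libraries labelled KO, against 11, 13.3 and 11.2 FPKM in those labelled Control, and so did Mlst8, a shared subunit.

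In BAT Deptor again lay above the Control libraries. It had 361 and 291 CPM in KO libraries, against 269.8, 245 and 237 CPM in Control libraries, a log2 change of 0.37 ± 0.13 (SE) as deposited (limma adjusted p = 0.24) and of 0.58 under TMM scaling. Mtor had 114 and 92.4 CPM in KO libraries, against 87, 88 and 75 CPM in Control libraries (log2 change 0.30 as deposited and 0.51 under TMM; limma adjusted p = 0.275). Both genes were higher in both KO libraries than in any Control library on the deposited scale, without passing the threshold. Leaving out 1 library at a time gave 0.22 to 0.53 for Deptor and 0.15 to 0.45 for Mtor, lowest without KO library 1 and highest without KO library 2 for both genes. Rptor had 36.9 and 35.9 CPM in KO libraries, against 37.2, 39.1 and 43.6 CPM in Control libraries. Rptor was below the Control libraries as deposited, and its log2 change was -0.13 as deposited and 0.074 under TMM.

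Rptor also lay below every Control library in 2 white sets. In ieWAT it had 73.3, 75.4 and 75.3 CPM in KO libraries, against 76.8, 80.9 and 84.8 CPM in Control libraries (log2 change -0.11; limma adjusted p = 1), the single member whose groups separated there. In sWAT it had 47.8, 52.5 and 55.6 CPM in KO libraries, against 56.4, 59.6 and 56.9 CPM in Control libraries (log2 change -0.15; limma adjusted p = 0.557). The highest KO library and the lowest Control library lay close together in both sets, and neither difference passed. In isWAT the groups overlapped for Rptor (74.1 and 75.3 CPM in KO libraries, against 80.3, 71.2 and 81.5 CPM in Control libraries), and Rictor was the lower one, at 17.1 and 18.9 CPM in KO libraries, against 20.0, 21.7 and 21.7 CPM in Control libraries (limma adjusted p = 0.385). Mtor overlapped in ieWAT, isWAT and sWAT, with log2 changes of -0.017, -0.10 and -0.037. Deptor overlapped there too, with log2 changes of -0.037, -0.04 and -0.14.

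Rheb, the small GTPase that activates mTORC1, went opposite ways in different depots without passing the limma threshold in any. In isWAT it had 72.2 and 75 CPM in KO libraries, against 60.3, 59.1 and 62.2 CPM in Control libraries (log2 change 0.28 ± 0.075 (SE); limma adjusted p = 0.3), and DESeq2 on the recovered reads called it. In BAT it had 37.7 and 43.5 CPM in KO libraries, against 57.5, 50.8 and 55.7 CPM in Control libraries (log2 change -0.42 ± 0.12 (SE) as deposited, -0.22 under TMM; limma adjusted p = 0.237). All isWAT KO libraries were above their Control libraries and all BAT KO libraries below theirs. In eWAT Rheb was higher again, at 62.8 ± 6.46 FPKM in the libraries labelled KO and 53 ± 1.92 FPKM in those labelled Control (SD, n = 3 each; limma adjusted p = 0.131), and in ieWAT and sWAT the groups overlapped, with changes of 0.083 and 0.019.

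Tsc1, which encodes hamartin of the complex that switches Rheb off, had a negative log2 change in all 5 sets as deposited (0.15 in BAT under TMM) and lay below every Control library in 3 of them. Of the 12149 genes tested in all 5 sets, 1582 had a negative change in each and 7.29% lay below Control in at least 3. The Tsc1 values were 28.8 and 28.9 CPM in KO libraries, against 30.8, 32.3 and 36.3 CPM in Control libraries in isWAT. They were 20.6, 22.4 and 20.7 CPM in KO libraries, against 22.8, 23.3 and 23.4 CPM in Control libraries in sWAT. In eWAT they were 5.80, 5.17 and 5.77 FPKM in the libraries labelled KO, against 6.55, 7.95 and 6.73 FPKM in those labelled Control. The log2 changes were -0.19, -0.12 and -0.29, with limma adjusted p values of 0.432, 0.613 and 0.0948, so none passed. Tsc2, encoding the partner that carries the GTPase-activating domain, was below the Control libraries in isWAT alone, at 115 and 111 CPM in KO libraries, against 133, 123 and 123 CPM in Control libraries (log2 change -0.15; limma adjusted p = 0.438), and differed by -0.025 to -0.010 elsewhere as deposited, with 0.19 in BAT under TMM.

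Among the Rag GTPases, Rragd had the smallest adjusted p of all members. Rragd encodes RagD, which pairs with RagA or RagB, and is known in other systems as a target of the MiT family of transcription factors (TFEB, TFE3 and MITF), whose motif holds the letters CACGTG. In eWAT Rragd had 1.22, 1.10 and 0.922 FPKM in the libraries labelled KO, against 2.86, 2.56 and 2.23 FPKM in those labelled Control. Every library labelled KO had less than the lowest one labelled Control, and Rragd fell, with a log2 change of -0.77 ± 0.12 (SE) (limma adjusted p = 0.0147). It was a low gene in eWAT, and the ratio of its means, 0.423, is a larger difference than that log2 value, since 1 was added before the log.

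The folliculin complex (Flcn with Fnip1 or Fnip2), which acts on RagC and RagD, had all 3 of its genes below the Control range in eWAT, beside 19.6% of all genes. Of the 3 genes, 1 passed, beside 4.7% of all genes called lower. Fnip1 had 9.24, 8.58 and 8.61 FPKM in the libraries labelled KO, against 11.2, 13.5 and 11.7 FPKM in those labelled Control, and it fell, with a log2 change of -0.42 ± 0.091 (SE) (limma adjusted p = 0.0305). Flcn, folliculin itself, had 19.3, 16.7 and 16.4 FPKM in the libraries labelled KO, against 20.6, 23.2 and 24.9 FPKM in those labelled Control (log2 change -0.37 ± 0.10 (SE); limma adjusted p = 0.0547). Fnip2 had 19.9, 12.4 and 20.4 FPKM in the libraries labelled KO, against 23.8, 33.5 and 35.2 FPKM in those labelled Control (log2 change -0.79 ± 0.22 (SE); limma adjusted p = 0.0601). The groups of all 3 genes were apart, and Flcn and Fnip2 stood just outside the threshold. In the other sets the groups overlapped for these genes, except that Flcn was below its Control libraries in isWAT (38.9 and 40.2 CPM in KO libraries, against 40.3, 51.5 and 47.3 CPM in Control libraries; limma adjusted p = 0.446). Fnip1 and Fnip2 had negative log2 changes in all 5 sets as deposited (in BAT under TMM, 0.0061 and -0.34), from -0.42 to -0.033 for Fnip1 and from -0.79 to -0.029 for Fnip2.

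Of the 6 members below the Control range in eWAT, Rictor and Tsc1 are left out here. The promoter windows of the other 4, Rragd and the 3 folliculin complex genes, are shown. Each holds 250 bases before to 50 after the RefSeq start, from RefSeq (GRCm38.p6), read 5′ to 3′ on the gene's strand, with any CACGTG in capitals. Rragd lies at chr4:32982748-32983047 (plus strand), Fnip1 at chr11:54437929-54438228 (plus strand), Flcn at chr11:59809990-59810289 (minus strand) and Fnip2 at chr3:79567630-79567929 (minus strand).
Rragd: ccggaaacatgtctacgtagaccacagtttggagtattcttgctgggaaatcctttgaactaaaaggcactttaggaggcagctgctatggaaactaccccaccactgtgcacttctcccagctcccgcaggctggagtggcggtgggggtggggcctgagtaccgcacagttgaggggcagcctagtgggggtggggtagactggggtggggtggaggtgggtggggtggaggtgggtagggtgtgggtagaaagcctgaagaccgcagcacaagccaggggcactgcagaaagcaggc
Fnip1: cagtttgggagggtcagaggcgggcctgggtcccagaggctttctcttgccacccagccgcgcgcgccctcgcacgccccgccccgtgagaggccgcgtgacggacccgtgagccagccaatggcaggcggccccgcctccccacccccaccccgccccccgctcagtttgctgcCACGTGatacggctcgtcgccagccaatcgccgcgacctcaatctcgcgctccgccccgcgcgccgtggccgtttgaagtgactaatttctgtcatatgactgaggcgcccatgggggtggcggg
Flcn: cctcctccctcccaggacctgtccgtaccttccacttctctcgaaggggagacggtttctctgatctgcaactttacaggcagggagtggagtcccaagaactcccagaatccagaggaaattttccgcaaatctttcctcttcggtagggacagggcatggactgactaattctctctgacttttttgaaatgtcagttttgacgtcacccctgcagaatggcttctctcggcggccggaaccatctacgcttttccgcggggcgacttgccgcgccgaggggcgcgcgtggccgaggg
Fnip2: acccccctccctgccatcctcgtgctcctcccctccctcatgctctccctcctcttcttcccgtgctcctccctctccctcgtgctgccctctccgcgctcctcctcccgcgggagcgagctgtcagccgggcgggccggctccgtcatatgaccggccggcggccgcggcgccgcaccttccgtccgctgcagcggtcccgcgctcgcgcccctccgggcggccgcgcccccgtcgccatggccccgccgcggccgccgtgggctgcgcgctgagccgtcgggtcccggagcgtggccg
CACGTG, a palindrome searched on both strands, was found once in the Fnip1 window, with its first letter at position -75 from the start, and not in the other 3. Of the 39 members, 36 matched a RefSeq entry, with 39 windows in all, and 6 of these windows held CACGTG (those of Fnip1, Lamtor1, Lamtor4, Rheb, Rragb and Rragc), beside 7.15% of 32851 windows of all genes. TGATGNAA, the letters of an ATF4 composite element searched on both strands, was in 1 member window, that of Lamtor4, beside 3.97% of all windows. The 4 windows printed had a GC content of 59.7%, 70.7%, 56.7% and 78.0%, beside a median of 52.7% over all windows.

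**Figure D2:**
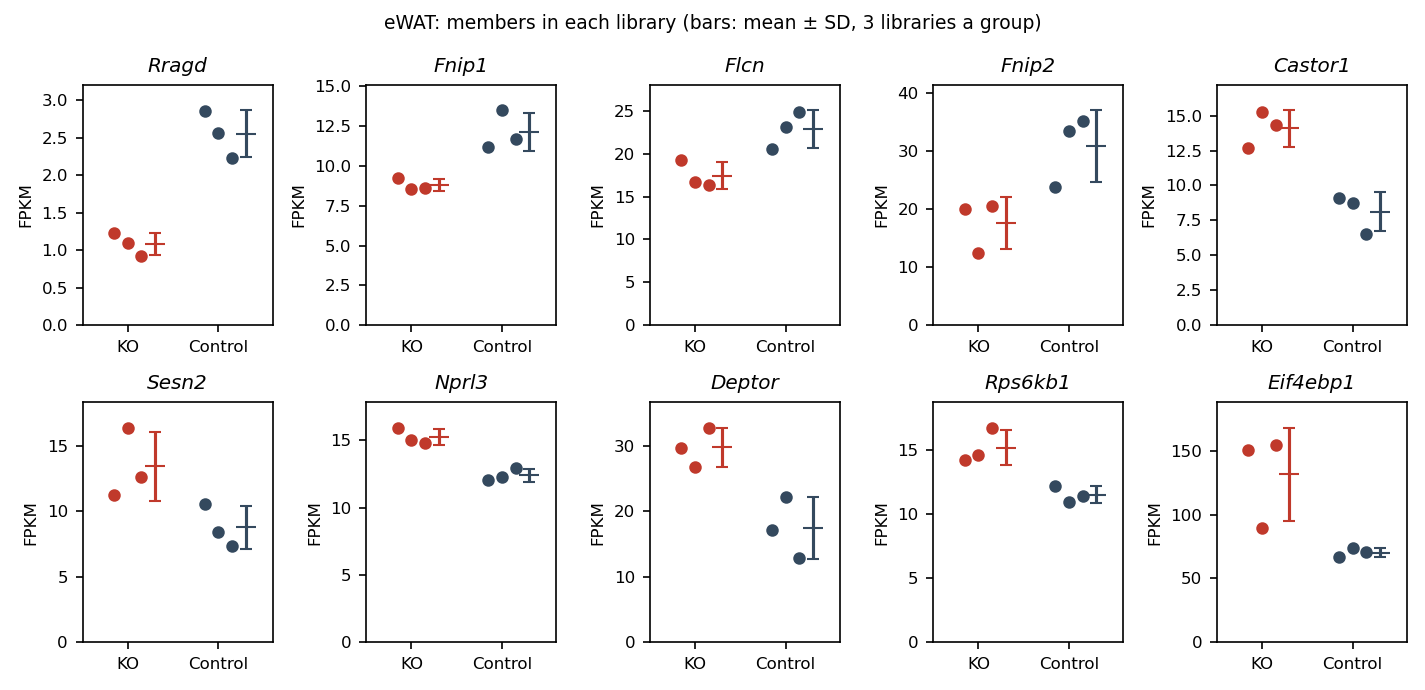
FPKM of 10 members in each eWAT library, with libraries labelled KO (red) left of those labelled Control (blue), and bars for mean ± SD with 3 libraries a group. The groups are apart in each panel: Rragd, Fnip1, Flcn and Fnip2 are lower and the other 6 higher in the libraries labelled KO, and Eif4ebp1 has 1 library labelled KO, at 89.1 FPKM, well under the other 2.

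In sWAT and BAT, Rragd was highest where the muscle genes were. In sWAT it had 0.271, 4.82 and 7.61 CPM in KO libraries, against 0.753, 0.889 and 0.979 CPM in Control libraries, and in BAT 2.89 and 16.7 CPM in KO libraries, against 3.11, 5.64 and 2.62 CPM in Control libraries. The high values were in the KO libraries with high muscle markers, and the sWAT KO library without them, at 0.27 CPM, had less Rragd than any Control library. Rragd was under the filter in sWAT and isWAT; in BAT its log2 change of 0.84 ± 0.72 (SE) had limma adjusted p = 0.516 and was -0.25 without KO library 2. With the mean of the muscle list as a covariate the BAT change was 0.76 ± 0.29 (SE; limma adjusted p = 0.295). In ieWAT it had 5.48, 2.81 and 8.96 CPM in KO libraries, against 6.79, 5.90 and 3.44 CPM in Control libraries, with overlapping groups.

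Rragb, encoding RagB, was the lowest of the members in every set and passed the filter in BAT alone, through its KO libraries. It had 1.35 and 1.54 CPM in KO libraries, against 0.753, 0.439 and 0.577 CPM in Control libraries there (log2 change 0.63; limma adjusted p = 0.239). One read was worth 0.0471 to 0.0669 CPM in BAT, so these levels rest on few reads, and how reads shared with its paralog Rraga were counted is not stated. Rraga, encoding RagA, was higher in isWAT (46.2 and 49.1 CPM in KO libraries, against 43.5, 42.1 and 45.5 CPM in Control libraries) and lower in sWAT (54.6, 55.7 and 51.9 CPM in KO libraries, against 58.1, 57.6 and 60.6 CPM in Control libraries), with limma adjusted p values of 0.529 and 0.575. Rragc, encoding RagC, stayed within 8% of its Control mean by the ratio of means in ieWAT, isWAT, sWAT and BAT, and was higher in every eWAT library labelled KO, at 84.3 ± 2.01 FPKM in the libraries labelled KO and 76.5 ± 5.28 FPKM in those labelled Control (SD, n = 3 each; limma adjusted p = 0.28).

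The 5 Ragulator subunits (Lamtor1 to Lamtor5), the scaffold that anchors the Rags, showed no call in any set. Lamtor5 was higher in isWAT, at 41.8 and 37.1 CPM in KO libraries, against 31.2, 37 and 32.7 CPM in Control libraries (limma adjusted p = 0.408), and all 7 Rag and Ragulator genes tested there had a log2 change above 0, from 0.016 to 0.23, beside 43.9% of all genes. Lamtor3 was lower in BAT, at 26.6 and 25.1 CPM in KO libraries, against 31.7, 28.6 and 30.3 CPM in Control libraries (log2 change -0.22 as deposited and -0.018 under TMM; limma adjusted p = 0.296). Lamtor1 also lay below the Control libraries in BAT as deposited, at 113 ± 6.05 CPM in KO libraries and 125 ± 7.40 CPM in Control libraries (SD), and its change was -0.14 there and 0.069 under TMM. For Lamtor2 and Lamtor4 the groups overlapped in every set.

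Of the upstream amino acid sensors, Castor1 passed, in eWAT. Castor1 encodes an arginine sensor that binds GATOR2. It had 12.7, 15.2 and 14.3 FPKM in the libraries labelled KO, against 9.10, 8.75 and 6.55 FPKM in those labelled Control. Every library labelled KO was above every one labelled Control, and Castor1 rose, with a log2 change of 0.73 ± 0.13 (SE) (limma adjusted p = 0.0192). In the other 4 sets its groups overlapped and its log2 change was negative, from -0.38 in BAT to -0.071 in isWAT. Slc38a9, a lysosomal arginine transporter and sensor, was lower in BAT as deposited, at 4.74 and 5.22 CPM in KO libraries, against 5.84, 5.27 and 7.71 CPM in Control libraries (limma adjusted p = 0.436), and overlapped in the other sets.

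GATOR1 (Depdc5, Nprl2 and Nprl3), the complex that inactivates RagA and RagB, had 1 call, Nprl3. In eWAT Nprl3 had 16, 15 and 14.8 FPKM in the libraries labelled KO, against 12, 12.3 and 12.9 FPKM in those labelled Control, and it rose, with a log2 change of 0.28 ± 0.072 (SE) (limma adjusted p = 0.0473). In GENCODE M21, 17.7% of its exonic bases overlap Mpg on the opposite strand, and no source used here says whether strand was used in counting. Nprl2 and Depdc5 overlapped in eWAT, with log2 changes of -0.02 and -0.19. Depdc5 lay below the Control libraries in sWAT, at 15.2, 16.5 and 14.8 CPM in KO libraries, against 16.7, 19 and 16.6 CPM in Control libraries (limma adjusted p = 0.597), and every other GATOR1 comparison outside eWAT overlapped.

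Sesn2 was apart between the groups in 4 of the 5 sets, more than any other member, but passed in none. Of the genes tested in all 5 sets, 1.98% were apart in at least 4, and so was 1 of the 37 members tested in all. Sestrins are stress-induced proteins that bind GATOR2, report leucine, and are linked to AMPK activation; Sesn2 is a known target of ATF4, and Sesn1 of p53 and FoxO. Sesn2 had 69.4 and 56.7 CPM in isWAT KO libraries, against 90.4, 75.4 and 86.6 CPM in isWAT Control libraries. It had 46.1, 60.0 and 53.8 CPM in sWAT KO libraries, against 75.7, 71.2 and 64.9 CPM in sWAT Control libraries. In BAT it had 23.6 and 23.2 CPM in KO libraries, against 35.3, 31.2 and 37.3 CPM in Control libraries. In all 3 sets every KO library lay below every Control library, with log2 changes of -0.41 ± 0.12 (SE), -0.40 ± 0.11 (SE) and -0.54 ± 0.12 (SE), and none passed (limma adjusted p = 0.308, 0.447 and 0.237). Under TMM the BAT change was -0.34. In eWAT Sesn2 lay the other way, with 11.3, 16.4 and 12.6 FPKM in the libraries labelled KO, against 10.6, 8.39 and 7.35 FPKM in those labelled Control (log2 change 0.56 ± 0.17 (SE); limma adjusted p = 0.0708). In ieWAT its KO libraries spanned its Control libraries on both sides (74.3, 82 and 32.5 CPM in KO libraries, against 52.1, 60.9 and 70.8 CPM in Control libraries).

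Sesn1 lay below the Control range in sWAT and BAT, as Sesn2 did. It had 30.6, 40.6 and 35.1 CPM in sWAT KO libraries, against 43.3, 43.4 and 42.3 CPM in sWAT Control libraries (log2 change -0.28 ± 0.10 (SE); limma adjusted p = 0.464). In BAT it had 8.49 and 8.56 CPM in KO libraries, against 16.2, 9.09 and 18.2 CPM in Control libraries (log2 change -0.65 ± 0.29 (SE) as deposited, -0.46 under TMM; limma adjusted p = 0.275). The KO libraries were lowest in both sets, and BAT Control library 2, at 9.09 CPM, came close to them. In isWAT Sesn1 was slightly higher, at 34.3 and 34.8 CPM in KO libraries, against 31.2, 33.3 and 31.7 CPM in Control libraries (limma adjusted p = 0.586), and in ieWAT and eWAT its groups overlapped, at 39.5, 39.7 and 31.4 FPKM in the libraries labelled KO, against 48, 52.4 and 38.7 FPKM in those labelled Control in eWAT. In BAT, Sesn3 was also below its Control libraries as deposited, at 12.4 and 12.6 CPM in KO libraries, against 15.3, 13.5 and 20.7 CPM in Control libraries, so that 4 of the 5 amino acid sensors separated downward there, beside 38.1% of all genes.

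The calls of both sestrins changed with the libraries kept. Leaving out the 2 muscle-rich sWAT KO libraries gave changes of -0.60 for Sesn2 and -0.48 for Sesn1, which then passed (limma adjusted p = 0.0203 and 0.0291), beside 5.54% of all genes (765), on the assumption that the lone KO library varies like the others. Without BAT Control library 2, Sesn1, Sesn2 and Rheb passed in BAT, 3 of 39 members beside 15.7% of all genes (2079), so neither count is a result about the members as a set. The BAT libraries also differed in macrophage markers, which averaged 3.26 and 3.26 in KO libraries, against 5.89, 4.45 and 6.50 in Control libraries, with all 10 markers apart and lower. Fibroblast and progenitor markers averaged 4.53 and 5.01 in BAT KO libraries, against 5.94, 5.23 and 6.52 in BAT Control libraries, with 10 of 10 lower and 7 apart. Endothelial markers averaged 6.32 and 6.27 in BAT KO libraries, against 6.52, 6.49 and 6.79 in BAT Control libraries, with 9 of 10 lower and 7 apart. The T and NK cell list (10 of 10 lower, 6 apart) and the B cell list (8 of 8 lower, 5 apart) had lower means in each BAT KO library than in any Control library too. The part of these markers in the BAT values was not tested.

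The Sesn2 window is shown because Sesn2 was apart in the most sets. It lies at chr4:132510407-132510706 (minus strand) in GRCm38.p6 (RefSeq) and holds neither CACGTG nor TGATGNAA, and its GC content was 64.7%.
Sesn2: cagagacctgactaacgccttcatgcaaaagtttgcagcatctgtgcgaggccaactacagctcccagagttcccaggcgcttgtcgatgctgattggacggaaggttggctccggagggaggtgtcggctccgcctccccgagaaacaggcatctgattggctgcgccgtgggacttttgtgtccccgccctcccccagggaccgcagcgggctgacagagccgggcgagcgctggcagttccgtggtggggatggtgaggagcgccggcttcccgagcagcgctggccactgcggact

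**Figure D3:**
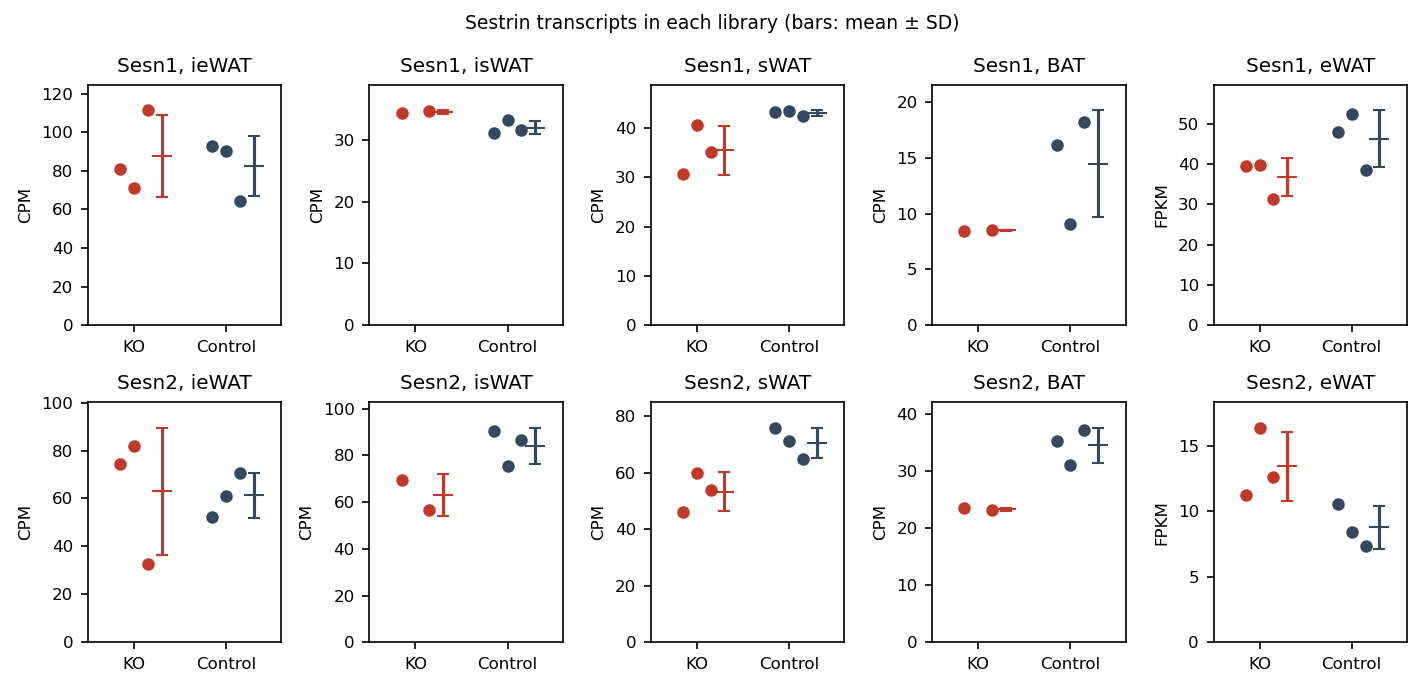
Sesn1 (top) and Sesn2 (bottom) in each library of the 5 depot data sets, in CPM (FPKM in eWAT), with KO libraries (red) left of Control libraries (blue) and bars for mean ± SD over 2 or 3 libraries. Sesn2 is below Control in isWAT, sWAT and BAT, above it in eWAT, and in ieWAT the KO libraries run from 32.5 to 82.0 CPM around the Control libraries.

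AMPK is built from a catalytic alpha, a scaffold beta and a nucleotide-binding gamma subunit. None of the 6 subunit genes, nor Stk11 (LKB1, the upstream kinase), passed in any set. In eWAT Prkag1, Prkag2 and Prkaa2 were higher in every library labelled KO. Prkag1 had 41.1, 41.5 and 42.6 FPKM in the libraries labelled KO, against 36.7, 36.2 and 34.5 FPKM in those labelled Control (limma adjusted p = 0.0764), and 43.7% of its exonic bases overlap an antisense gene in GENCODE M21. Prkaa2, the alpha2 catalytic subunit, had 1.01, 1.43 and 1.23 FPKM in the libraries labelled KO, against 0.895, 0.85 and 0.586 FPKM in those labelled Control (limma adjusted p = 0.153). It reached the filter of 1 FPKM in the libraries labelled KO alone, so it was tested only because it was high there, and its p supports nothing. Prkaa1, the alpha1 subunit, had 11.1, 11.3 and 11.1 FPKM in the libraries labelled KO, against 11.2, 12.3 and 13.9 FPKM in those labelled Control, with overlapping groups. Within a library, log2 of Prkaa2 over Prkaa1 averaged -3.21 in the libraries labelled KO and -4.02 in those labelled Control, a difference of 0.82 (exact two-sided permutation p = 0.10, the smallest that 3 against 3 libraries allow; adjusted over 15 ratios, 0.75), and this ratio rests on the same Prkaa2 values.

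In BAT the beta1 gene Prkab1 was the AMPK gene furthest from its controls. It had 30.9 and 34.7 CPM in KO libraries, against 24.4, 21.2 and 22.9 CPM in Control libraries, with a log2 change of 0.50 ± 0.12 (SE) as deposited and 0.70 under TMM (limma adjusted p = 0.237), and DESeq2 called it. Both KO libraries were above every Control library. In isWAT Prkag2, encoding gamma2, was lower, at 40.4 and 34.1 CPM in KO libraries, against 47.6, 47.1 and 51.9 CPM in Control libraries (log2 change -0.39 ± 0.10 (SE); limma adjusted p = 0.285). The log2 ratio of Prkag2 to Prkag1 was -0.78 and -1.03 in isWAT KO libraries, against -0.54, -0.54 and -0.36 in isWAT Control libraries (exact two-sided permutation p = 0.20, the smallest that 2 against 3 allow).

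Prkaa2 and Prkab2 are isoforms known to be prominent in skeletal muscle, so their values are read beside the muscle markers. Prkaa2 had 13.9, 14.9 and 16 CPM in sWAT KO libraries, against 10.2, 13 and 11.1 CPM in sWAT Control libraries (log2 change 0.36 ± 0.12 (SE); limma adjusted p = 0.447). In BAT it had 15.4 and 24.6 CPM in KO libraries, against 12.4, 15.6 and 12.8 CPM in Control libraries. Its highest value in each set was in the KO library with the most muscle RNA. All 3 sWAT KO libraries were above every Control library, with 13.9 CPM in the one without muscle markers. With the muscle list as a covariate the sWAT change was 0.27 (limma adjusted p = 0.456). Prkab2 had 21, 23.3 and 34.1 CPM in sWAT KO libraries, against 19.9, 21 and 17.6 CPM in sWAT Control libraries and 5.48 and 14.8 CPM in BAT KO libraries, against 7.67, 8.09 and 7.55 CPM in BAT Control libraries; its sWAT change of 0.38 became 0.11 with that covariate. In BAT Prkaa2 had a change of 0.50 without the covariate and 0.48 with it (limma adjusted p = 0.287), but 0.18 without KO library 2 and 0.82 without KO library 1. Prkab2 in BAT had 0.21 without it and 0.17 with it. Prkaa1 showed the reverse in sWAT (59.9, 39.6 and 46.4 CPM in KO libraries, against 43.2, 46.8 and 44.8 CPM in Control libraries), with the one high value in the muscle-poor KO library and a change of 0.092 that became 0.39 with the covariate. The muscle list was low in KO library 1 and in all Control libraries of sWAT, so the sWAT covariate changes rest largely on KO library 1. Without both muscle-rich KO libraries the sWAT changes were close to them, at 0.26 for Prkaa2, 0.11 for Prkab2 and 0.41 for Prkaa1. In BAT and ieWAT, Prkaa1 differed by -0.045 and 0.073.

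**Figure D4:**
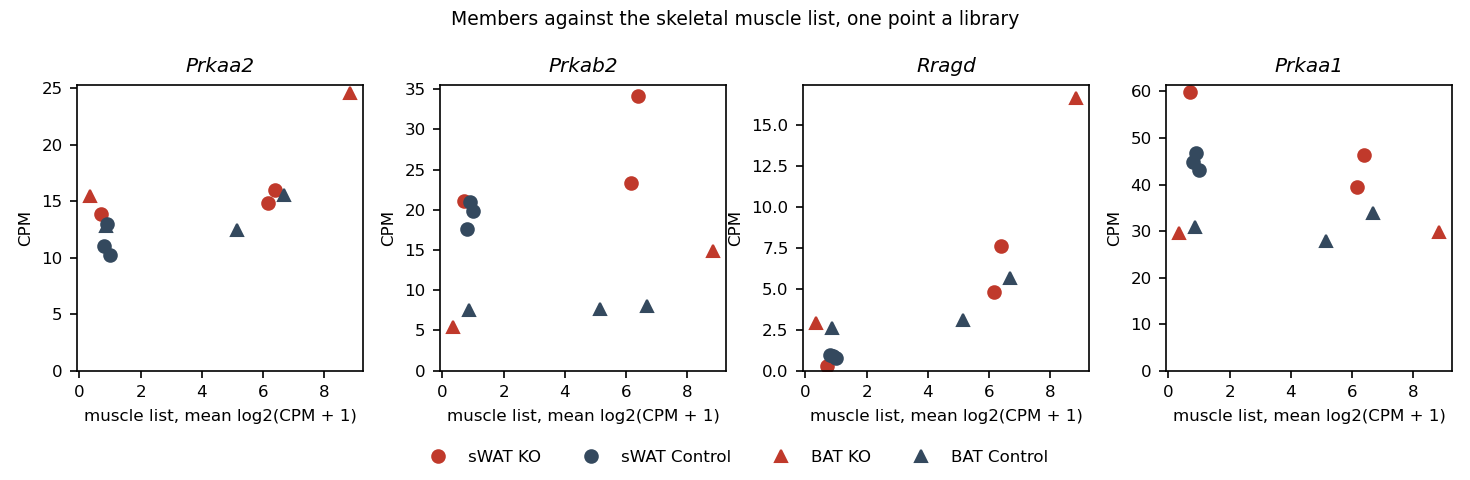
CPM of Prkaa2, Prkab2, Rragd and Prkaa1 (y axes, from 0) against the mean log2(CPM + 1) of 12 skeletal muscle genes (x axes), with 1 point a library, KO in red and Control in blue, circles for sWAT and triangles for BAT. Rragd and Prkab2 are highest in the muscle-rich KO libraries, and Prkaa1 is not.

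The 3 direct outputs of the pathway are the mTORC1 substrates Rps6kb1 (S6 kinase 1) and Eif4ebp1 (4E-BP1, a brake on cap-dependent translation) and the autophagy kinase Ulk1, a substrate of both kinases. Eif4ebp1 had 150.3, 89.1 and 155 FPKM in the libraries labelled KO, against 66.6, 73.6 and 70.7 FPKM in those labelled Control. It rose, with a log2 change of 0.85 ± 0.21 (SE) (limma adjusted p = 0.0427), although 1 library labelled KO was much nearer to the Control values than the other 2. Rps6kb1 had 14.2, 14.6 and 16.7 FPKM in the libraries labelled KO, against 12.2, 10.9 and 11.4 FPKM in those labelled Control, and it rose, with a log2 change of 0.37 ± 0.09 (SE) (limma adjusted p = 0.0405). Of the 37 members tested in all 5 sets it was the one with a positive log2 change in each, from 0.015 in BAT upward, beside 4.24% of the genes tested in all 5, and its groups overlapped outside eWAT. Eif4ebp1 was also higher on average in isWAT (205 and 161 CPM in KO libraries, against 141, 167 and 131 CPM in Control libraries; limma adjusted p = 0.397), where the groups overlapped. Its change in BAT was -0.13 as deposited and 0.075 under TMM. Ulk1 was lower in isWAT, at 69.9 and 72.1 CPM in KO libraries, against 85.2, 80.7 and 80.2 CPM in Control libraries (log2 change -0.20 ± 0.075 (SE); limma adjusted p = 0.355), and overlapped in the other 4 sets.

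The eWAT calls changed with the libraries kept. Without KO library 3, no member and 10 genes (0.0728% of all) passed. Castor1 and Rragd passed without KO library 1 (8.78% of all genes) and without Control library 3 (8.54%), Eif4ebp1 and Rragd without KO library 2 (6.74%), and Deptor alone without Control library 2 (4.46%). Without Control library 1, 6 members passed (13.4% of all genes), among them Castor1, Fnip1 and Rragd. The second deposited eWAT table, in TPM and with columns correlating at 0.689 to 0.964, against 0.979 to 0.994 in the FPKM table, gave no member call and 0.00848% of its genes.

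Per length (CPM per kilobase of GENCODE M21 exon, or FPKM in eWAT), the 4 Ragulator genes Lamtor1, Lamtor2, Lamtor4 and Lamtor5, with Rragc and Eif4ebp1, filled the first 6 ranks in the Control libraries of every set. In sWAT Control libraries Eif4ebp1 stood at 59.0 ± 5.01, Rragc at 53.9 ± 1.20 and Lamtor1 at 51.9 ± 3.06 CPM per kb (SD, n = 3), the 3 Eif4ebp1 values all being above the Rragc ones and the Rragc and Lamtor1 values overlapping. Rragb was last in every set, with 0.0968 ± 0.0126 CPM per kb in sWAT Control libraries, and Rictor, Slc38a9, Rragd and Prkaa2 were among the lowest 10. By level Sesn2 ranked 10 to 14 among the 39 members in the CPM sets and 29 in eWAT, and Sesn1 ranked 9 in ieWAT and eWAT but 26 in BAT. The tables were normalised separately, so ranks and not levels are set side by side here.

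Beyond the members, 9 lists of other pathway genes were read in eWAT against the same 14.9% of all genes called (10.2% higher, 4.7% lower). Of 15 AMPK substrate genes tested, 5 rose and none fell, with a list median of 0.092: Lipe (hormone-sensitive lipase, also on the adipocyte list), Pfkfb3, Gys1 (glycogen synthase), Acaca (acetyl-CoA carboxylase 1) and Mlycd (malonyl-CoA decarboxylase). Lipe had 424, 475 and 459 FPKM in the libraries labelled KO, against 232, 197 and 141 FPKM in those labelled Control (limma adjusted p = 0.0122), and Pfkfb3, a glycolytic regulator, had 172, 183 and 189 FPKM in the libraries labelled KO, against 93.3, 89.9 and 57.1 FPKM in those labelled Control (limma adjusted p = 0.0142). Acacb, the other carboxylase gene, had a change of 0.72 and did not pass (limma adjusted p = 0.061). Of the LKB1 and AMPK partners, Prkag3 (the gamma3 subunit) and Cab39l (a scaffold for LKB1) rose among 7, with Prkag3 at 2.01 ± 0.301 FPKM in the libraries labelled KO and 0.691 ± 0.264 FPKM in those labelled Control (SD, n = 3 each; limma adjusted p = 0.0207). Prkag3 reached the filter of 1 FPKM in the libraries labelled KO alone, so it had to differ and its call supports nothing.

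All 17 MiT transcription factor and lysosome genes had a negative log2 change in eWAT, beside 53.6% of all genes, with a median of -0.38. In 9 of the 17 every library labelled KO lay below every one labelled Control, beside 19.6% of all genes. Of the 17, 2 (11.8%) fell past the threshold, beside 4.7% of all genes called lower and 14.9% called in either direction. They were Mitf, at 9.65 ± 1.49 FPKM in the libraries labelled KO and 16.3 ± 2.01 FPKM in those labelled Control (limma adjusted p = 0.0211), and Tfeb, at 21.8 ± 2.81 FPKM in the libraries labelled KO and 30.4 ± 2.98 FPKM in those labelled Control (limma adjusted p = 0.045; SD, n = 3 each for both genes). Tfe3, the third factor, had a change of -0.28 (limma adjusted p = 0.14), and the cathepsin D gene Ctsd one of -0.56 (limma adjusted p = 0.0927). Lysosome genes are also high in macrophages, whose 10 markers were all lower in these libraries; their part was not tested. In sWAT 16 of the 17 genes were also below 0, beside 62.8% of all genes, with a median of -0.24 and no call, and all 10 macrophage markers had lower means there. In isWAT 13 of the 17 were above 0, beside 43.9% of all genes. There 8 of 10 macrophage markers had higher means and 2 lower, with overlapping list means, and their part was not tested.

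Among 12 ATF4 and stress targets 3 rose and none fell (list median 0.36). These 3 were the serine synthesis genes Phgdh, at 145 ± 21.3 FPKM in the libraries labelled KO and 51.8 ± 11.6 FPKM in those labelled Control (limma adjusted p = 0.0122), and Psat1, at 65.8 ± 8.93 FPKM in the libraries labelled KO and 33.7 ± 3.16 FPKM in those labelled Control (limma adjusted p = 0.0122), and the lipoprotein receptor gene Vldlr (limma adjusted p = 0.0405). Atf4 itself differed by 0.032 (limma adjusted p = 0.876). Of 9 amino acid transporters, Slc1a5, a glutamine carrier, rose, at 478 ± 85 FPKM in the libraries labelled KO and 198 ± 37.7 FPKM in those labelled Control (limma adjusted p = 0.0129), while Slc43a2 and Slc38a1 fell (limma adjusted p = 0.022 for the one, 0.0438 for the other). Other calls were Kptn of KICSTOR (higher, 1 of 9), and Eif4g1 (higher) and Eif4b (lower) among 11 translation outputs. Prr5 and Tbc1d7 (higher) and Telo2 (lower) were called in a list of 7 genes. That list holds mTORC2 and assembly partners together with Tbc1d7, which encodes a subunit of the TSC complex. None of 4 ULK1 complex genes passed.

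**Figure D5:**
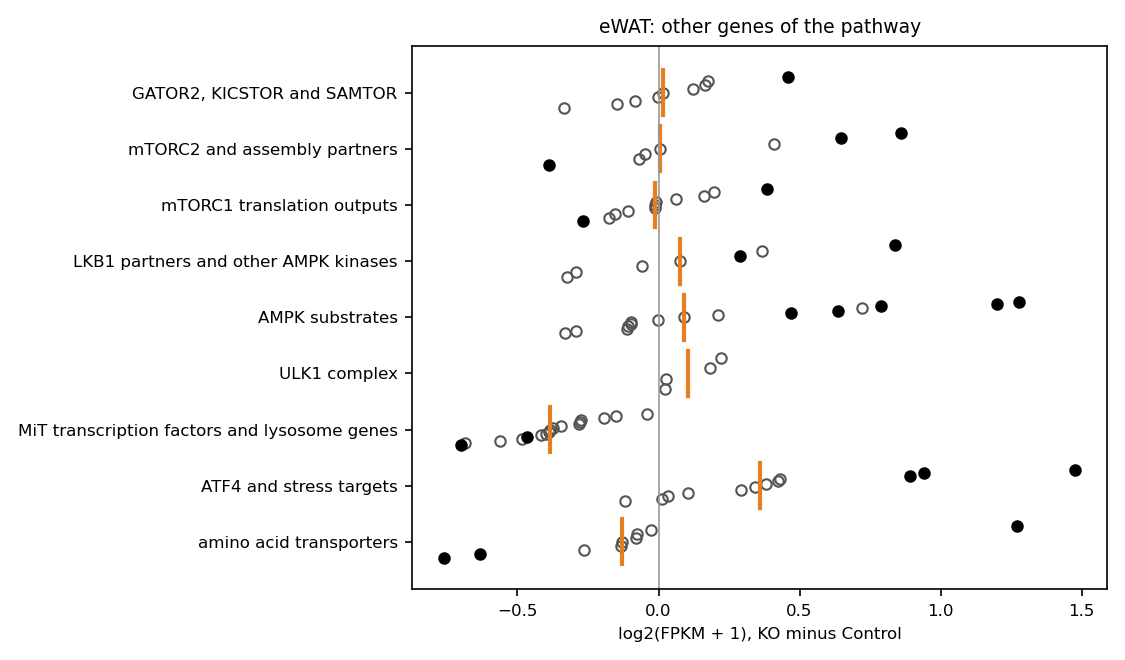
Log2 change on log2(FPKM + 1), libraries labelled KO minus those labelled Control, of each gene of 9 lists outside the 39 members in eWAT, with filled points past an adjusted p of 0.05 and orange bars for the list medians. The MiT and lysosome list lies wholly below 0 with a median of -0.38, and the ATF4 and stress list has a median of 0.36 with 3 filled points to the right.

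No gene of these lists passed outside eWAT. In isWAT the amino acid transporters had a median change of -0.31 beside -0.028 over all genes, with 5 of 9 lower at an unadjusted p under 0.05, beside 9.13% of all genes. Slc38a2, a neutral amino acid transporter known to follow amino acid starvation, had 72.6 and 87.4 CPM in KO libraries, against 118, 97.7 and 116 CPM in Control libraries (limma adjusted p = 0.285), and Slc7a1, an arginine transporter, had 18.1 and 20.0 CPM in KO libraries, against 29.9, 23 and 26.7 CPM in Control libraries (limma adjusted p = 0.3). Each isWAT KO library was below each Control library for both, as it was for Sesn2. The isWAT ATF4 and stress list had a median of -0.025 beside -0.028 over all genes, with 7 of its 12 genes below 0 and 5 above. The transporter median was below that of all genes in the other sets too. It was -0.44 beside -0.18 in BAT, -0.20 beside -0.048 in sWAT, -0.13 beside -0.025 in eWAT and -0.036 beside 0.018 in ieWAT. The BAT median includes Slc7a5 and Slc38a1, which reached the filter of 1 CPM in the Control libraries alone and so had to be lower. In BAT the ATF4 list had a median of -0.43 and the lysosome list one of -0.38, beside -0.18 over all genes as deposited and beside the lower macrophage, fibroblast, lymphocyte and endothelial markers given above, with Mthfd2 at 2.77 and 1.61 CPM in KO libraries, against 4.99, 4.95 and 5.30 CPM in Control libraries (limma adjusted p = 0.237) and Trib3 at 7.45 and 5.02 CPM in KO libraries, against 10.4, 11.2 and 11.6 CPM in Control libraries (limma adjusted p = 0.237). Among AMPK substrates in BAT, Acaca and Acacb, the acetyl-CoA carboxylase genes, were higher: Acacb had 701 and 537 CPM in KO libraries, against 305, 365 and 275 CPM in Control libraries (limma adjusted p = 0.237) and Acaca 1645 and 1109 CPM in KO libraries, against 751, 416 and 313 CPM in Control libraries (limma adjusted p = 0.237). Of the 16 AMPK substrate genes in BAT, 10 were above 0 and 6 below, with a median of 0.047, beside 23.6% of all genes above 0. In ieWAT the medians of the 9 lists ran from -0.062 to 0.035.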

How the data were processed

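Adipose RNA (1 µg a sample, Qiagen RNeasy) was sequenced on a HiSeq2000 for 50 cycles, per the labels' protocols. The submitters' processing notes name Salmon, FastQC, MultiQC and DESeq2 1.38.3; no source used here gives the genome build or the strand use. The authors deposited 7 tables, of which 5 were used: CPM values for ieWAT, isWAT, sWAT and BAT, and FPKM values for eWAT. A second eWAT table that the authors deposited in TPM served as an alternative. Every CPM value was a whole number of reads within 0.01 reads, so counts were recovered from the deposited CPM for alternatives in edgeR 4.0.16 and DESeq2 1.42.0.

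Identifiers were named from GENCODE M21, with 92.01% matched (96.04% in ieWAT). Per depot, log2(value + 1) of genes reaching 1 in a number of libraries no lower than the size of the smaller group was fitted in limma 3.58.1 (R 4.3.3; trend and robust eBayes), with Benjamini-Hochberg adjustment over all genes and a threshold of 0.05. The procedure was tested on simulated data. Isoform ratios used exact permutation tests. The members and lists were chosen with earlier results of these data known. Values per sample are given for up to 8 members a depot with the smallest p among those at an unadjusted p under 0.05 or with groups apart, for 8 fixed members (Mtor, Rptor, Prkaa1, Prkaa2, Deptor, Sesn1, Eif4ebp1 and Rragd), and for up to 4 genes a list by smallest p. Other genes given with values, among them Fnip2, Sesn2, Tsc1, Akt1s1 and Prkag1 in eWAT, were named after their values were seen. Alternatives were other pseudocounts, filters, scalings, tools, a replicate block, array weights and each library left out. A muscle covariate in BAT and sWAT without its 2 muscle-rich KO libraries were added after seeing the data.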

Additional observations from a re-analysis of the deposited data

Results flagged for a closer look

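For 6 members every KO library lay on one side of every Control library in one depot data set and on the opposite side in another, 16.2% of the 37 members tested in all 5 sets beside 16.5% of the 12149 genes tested in all 5. The difference between depots was not tested for any of them, none of these changes passed the limma threshold, and all values are log2 changes, KO minus Control. Rheb stood at 0.28 in isWAT and 0.24 in eWAT, but at -0.42 in BAT. Sesn2 stood at 0.56 in eWAT, but at -0.41 in isWAT, -0.40 in sWAT and -0.54 in BAT. Sesn1 stood at 0.11 in isWAT, but at -0.28 in sWAT and -0.65 in BAT. Rraga stood at 0.12 in isWAT and -0.12 in sWAT. Prkab2 stood at 0.38 in sWAT, where 2 KO libraries held muscle RNA, and at -0.14 in isWAT. Prkag2 stood at 0.14 in eWAT and -0.39 in isWAT. The eWAT values carry the doubt that Fgf13 was not lower in the eWAT libraries labelled KO.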

How the results depend on the processing

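Genes called and the members' median changed with the settings as follows; where no cause is given it was not tested. In ieWAT DESeq2 called 32 genes and array weights gave a median of 0.042; without 1 library 0 to 1 genes were called, with medians of -0.029 to 0.036. In isWAT 3 genes were called with no filter, 0 by eBayes without options and 259 by DESeq2 (1 member, Rheb); the median was -0.012 under TMM and under median-of-ratios scaling, and -0.017 by edgeR and by DESeq2; without 1 library 0 to 12 genes were called, with medians of -0.052 to 0.028. In sWAT 5 genes were called with pseudocount 0.1, 5 with no filter, 52 by DESeq2, 181 with the muscle covariate and 765 (2 members) without both muscle-rich KO libraries; medians were 0.0015 (TMM), 0.011 (median-of-ratios), 0.010 (edgeR), 0.013 (DESeq2), -0.065 (muscle covariate) and -0.064 (without both); without 1 library 0 to 92 genes were called, with medians of -0.062 to -0.020.

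In BAT 0 genes were called with pseudocount 0.1, a minimum of 5, eBayes without options, edgeR or the muscle covariate, 7 with no filter, 2880 (6 members) with array weights and 791 (2 members) by DESeq2; the median was 0.15 under TMM, median-of-ratios, edgeR and DESeq2; without 1 library 0 to 2079 genes and 0 to 3 members were called, with medians of -0.11 to -0.023. In eWAT 544 genes (1 member, Rragd) were called with no filter, 3858 (14 members) with array weights, 3 members by eBayes without options, 3618 genes (13 members) at a threshold of 0.1, and 1 gene and 0 members in the second table, whose median was 0.74; without 1 library 10 to 1834 genes and 0 to 6 members were called, with medians of 0.017 to 0.067. Where 1 library left a lone KO library, it was assumed to vary like the others. The counts of members in this section stand without shares over all genes, and none is read as a result about the members as a set.

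Whether replicate numbers pair the samples is not known. After centring on the group means, same-numbered libraries correlated at -0.56 to 0.39, and not every library correlated best with its own number. With 2 or 3 libraries a group this cannot exclude a pairing. With the number as a block, 1 gene was called in ieWAT, 7 in isWAT (median -0.017), 1 in sWAT, 0 in BAT, and 0 genes and 0 members in eWAT.

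Sign changes of single genes were Rragd (-0.011, median-of-ratios) and Deptor (0.016, array weights) in ieWAT, Deptor in isWAT (0.019, replicate block), and Mtor in sWAT (0.00083 by TMM, 0.010 by median-of-ratios, 0.0040 by array weights, 0.012 by edgeR, 0.014 by DESeq2). In BAT, TMM, median-of-ratios, edgeR and DESeq2 gave 0.074, 0.073, 0.077 and 0.076 for Rptor, 0.15 in each for Prkaa1 (0.072 with array weights) and 0.075, 0.074, 0.069 and 0.066 for Eif4ebp1. In the second eWAT table Rps6kb1 had -0.42, Flcn 1.52 and Prkaa1 0.54. Without 1 library, ranges spanned 0 in ieWAT for Mtor (-0.14 to 0.062), Rragd (-0.32 to 0.37), Sesn1 (-0.11 to 0.22), Eif4ebp1 (-0.25 to 0.0094), Prkaa2 (-0.21 to 0.035), Deptor (-0.14 to 0.14) and Prkaa1 (-0.0069 to 0.18). They did so in isWAT for Prkaa1 (-0.21 to 0.067), Deptor (-0.12 to 0.037) and Prkaa2 (-0.034 to 0.071), in sWAT for Prkaa1 (-0.066 to 0.23), and in BAT for Rragd (-0.25 to 1.93) and Prkaa1 (-0.11 to 0.022). Of all values for single genes under alternatives, 974 kept direction and side of the threshold, 55 lost the threshold, 17 gained it and 43 changed sign. eWAT depth is unknown, which leaves the precision of its low genes unstated.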
